A study of Nicotiana tabacum with 12 samples.

Results

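ADC1A (LOC107774919) encodes arginine decarboxylase, and it is described here as 1 gene of the 61526 in a table of read counts from tobacco leaves. It was taken by its row in that table and was selected on its read counts in 3 transgenic lines and in untransformed plants, a comparison in which it had the smallest p of the 906 tested genes with a symbol (edgeR adjusted p = 0.0530 over 39207 tested genes, above the threshold of 0.05). Its difference from untransformed plants is therefore given as a description, with no test. The adjusted p was under 0.05 in 3 of 17 alternatives in scaling, filter, tool and libraries, and these are not read as tests either. The symbol table names 3 arginine decarboxylase genes, ADC1A, ADC1 and ADC2.

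The leaves came from field-grown burley tobacco, Nicotiana tabacum cultivar TN90, and were upper leaves frozen before maturity. The transgenic plants, of line P2.4a, line P3.9a or line P9.10a, carry NtYb1 (EGY2) behind the 35S promoter, which drives expression in most plant tissues, and are green-stemmed segregants of primary transformants. CK is wild-type TN90 with no genetic modification. Each group has 3 libraries described as biological replicates, and the labels do not say how many plants went into a library or how many clones a line holds. The text on treatment gives the P3 plant another number than the sample titles, which were followed. The stated question is which pathways of carbon and nitrogen metabolism differ with the state of the Yb loci.

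Polyamines are small nitrogen-rich cations that bind nucleic acids and membranes, and plants draw on arginine for much of their supply. Arginine decarboxylase converts arginine to agmatine, from which putrescine is made. Ornithine decarboxylase reaches putrescine from ornithine directly. In tobacco, putrescine has a further use: its methylation in the root opens the route to nicotine, which the plant moves to its leaves. Leaves also oxidise putrescine with diamine oxidases, and extend it to spermidine and spermine with groups from decarboxylated S-adenosylmethionine.

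Totals ran from 13536964 to 16788583 counts in the transgenic libraries and from 16657112 to 18444571 in CK, and levels are given as CPM, the reads of a gene scaled to a common library size after TMM normalization. P3.9a replicate 1 stood apart, at -77.4 on the first principal component against -26.5 to 40.3 for the other 11 libraries. On the second component CK replicate 3 was the highest at 62.8, against -32.3 to 22.2 for the other 11 libraries. No gene symbol of the EGY family was matched, so the transgene was not checked. Among markers of the labelled tissue, all 9 leaf genes were tested, with summed levels of 13469 to 19970 CPM in transgenic libraries and 15962 to 18735 CPM in CK. The 6 root markers summed to 41.9 to 67.2 CPM in transgenic libraries and 64.0 to 77.9 CPM in CK: PMT1, PMT2 and PMT3 had 0 counts in all 12 libraries, PMT4 had 1 read in 1 library, TobRB7 had 8 to 29 reads in transgenic libraries and 12 to 21 in CK, and QPT2A made up nearly all of the sum. The 4 vascular markers summed to 301 to 335 CPM in transgenic libraries and 331 to 361 CPM in CK. Of these, the sucrose transporter SUT1 had no overlap between the groups, as ADC1A had none. SUT1 stood at 86.0 to 110 CPM in the 9 transgenic libraries against 138 to 160 CPM in CK, and 1.73% of all genes tested lay wholly below CK. The phloem genes SEO1 and SEO2 overlapped between the groups, with 3 and 5 of the 9 transgenic libraries above all CK libraries. The trichome marker NtABS was above all CK libraries in 8 of 9 transgenic libraries, at 61.2 to 136 CPM against 62.4 to 68.9 CPM in CK. The 11 dividing-cell markers summed to 275 to 351 CPM in transgenic libraries and 251 to 296 CPM in CK. For the mean of the lines, 3 of the 11 had an unadjusted p under 0.05 in edgeR, against 11.4% of all genes. So did 1 of 9 leaf markers, the 1 trichome marker, 1 of 2 tested root markers, 1 of 4 vascular markers and 0 of 3 tested flower markers. Among the dividing-cell markers, CycD3.1 lay above all CK libraries in 9 of 9 transgenic libraries (25.7 to 36.6 CPM against 21.2 to 25.7 CPM in CK). Its nearest values were 25.70 CPM in a transgenic library and 25.67 CPM in CK. The cyclin LOC107793085 also lay above (22.0 to 33.8 CPM against 16.4 to 17.4 CPM in CK), while NtcycD3-1 lay below all CK libraries in 8 of 9. The shares of all genes with 9 of 9 or 8 of 9 libraries above CK, or 8 of 9 below, are not given. The 4 flower markers, with agamous at 0 counts in 11 of 12 libraries, summed to 31.9 to 66.2 CPM in transgenic libraries and 48.9 to 53.1 CPM in CK. No marker passed the threshold for the mean of the lines. The part of these markers in the ADC1A values was not tested.

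ADC1A was an abundant leaf transcript, ranked 420 of 39207 tested genes by mean log2 CPM, and every library held between 2595 and 6029 of its reads. It stood at 248, 278 and 262 CPM in P2.4a replicates 1, 2 and 3. In P3.9a it stood at 168, 209 and 185 CPM, and in P9.10a at 188, 209 and 200 CPM. In CK it stood at 299, 335 and 347 CPM. All 9 transgenic libraries thus lay below all 3 CK libraries, and the nearest pair was P2.4a replicate 2 at 278 CPM and CK replicate 1 at 299 CPM. Of all genes tested, 1.73% lay below CK in the same way. In bulk leaf RNA, fewer cells of a type that expresses the gene and less of its RNA per cell cannot be told apart.

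**Figure D1:**
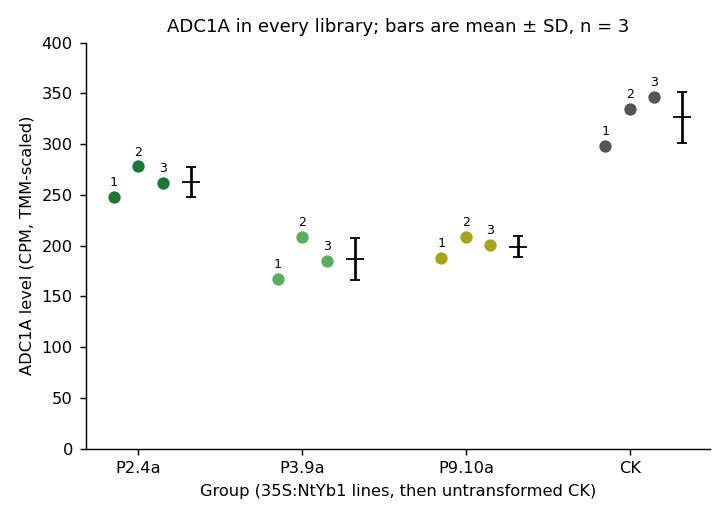
ADC1A level in CPM (vertical axis) in each library of the 3 transgenic lines and CK, with replicate numbers above the points; black bars are the mean ± SD of 3 libraries. P2.4a sits at 248 to 278 CPM, between P3.9a and P9.10a (168 to 209 CPM) and CK (299 to 347 CPM).

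The mean level was 263 ± 15 CPM in P2.4a, 187 ± 20.8 CPM in P3.9a, 199 ± 10.4 CPM in P9.10a and 327 ± 24.9 CPM in CK (SD, n = 3 each). From high to low the order was CK, P2.4a, P9.10a and P3.9a. The mean of the 3 lines minus CK was -0.61 on the log2 scale (SE 0.11), or 34.5% lower. By line the fitted difference from CK was -0.31 (SE 0.13) in P2.4a, -0.80 (SE 0.14) in P3.9a and -0.71 (SE 0.13) in P9.10a. These 3 values share the CK libraries and are given side by side as descriptions. Over 17 alternatives in scaling, filter, tool and libraries the difference of the mean ran from -0.67 to -0.57. The lowest was without CK replicate 1 and the highest without CK replicate 3. The background was 0.0383% of genes called by edgeR in this contrast and 11.4% at an unadjusted p under 0.05.

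The differences among the transgenic lines are also given as descriptions, with no test, since ADC1A was selected on its row across all 12 libraries. All 3 P2.4a libraries lay above all 3 libraries of P3.9a and all 3 of P9.10a, while P3.9a and P9.10a overlapped. Of all genes, 3.92% had P2.4a wholly above P3.9a and 4.33% had it wholly above P9.10a. By value the trichome marker NtABS ran the other way, at 61.2 to 88.2 CPM in P2.4a, 114 to 136 CPM in P3.9a and 98.6 to 114 CPM in P9.10a; its part in the ADC1A values was not tested.

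Of the 3 pairs of lines, P3.9a minus P2.4a was the widest at -0.49 on the log2 scale (SE 0.13). P2.4a minus P9.10a was 0.40 (SE 0.13), and P3.9a minus P9.10a was -0.09 (SE 0.13). These standard errors come from the fit of all 12 libraries, in which CK adds to the estimate of the spread. They are not adjusted for the choice of the gene.

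Libraries of 1 group resembled each other closely for ADC1A. Its SD within groups was 0.11 in log2 CPM, against a median of 0.23 over all genes tested and 0.21 over the genes within 500 ranks of its level. Of those genes at a like level, 8.15% had a smaller SD; a gene found by a small p is more likely to have a small SD, so this value is not independent of how ADC1A was found. CK replicate 1, P3.9a replicate 1 and P9.10a replicate 1 were the lowest of their groups, and P2.4a replicate 1 was too, with deviations of -0.13, -0.15, -0.08 and -0.08 from the group means in log2 CPM.

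ADC1 and ADC2, the other genes with an arginine decarboxylase symbol, had smaller differences and wider spreads. ADC1 (LOC107796783) stood at 380, 450 and 343 CPM in P2.4a, at 282, 351 and 405 CPM in P3.9a and at 272, 350 and 358 CPM in P9.10a. In CK it stood at 357, 404 and 499 CPM, so the groups overlapped, with 5 of 9 transgenic libraries below all CK libraries. Its mean of the lines minus CK was -0.25 (SE 0.15, edgeR adjusted p = 0.559), with a 95% interval of -0.56 to 0.06.

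ADC2 (LOC107767963) stood at 156, 262 and 124 CPM in P2.4a, at 101, 154 and 260 CPM in P3.9a and at 120, 149 and 122 CPM in P9.10a. In CK it stood at 178, 167 and 223 CPM. The transgenic libraries lay on both sides of CK, with P2.4a replicate 2 and P3.9a replicate 3 above all CK libraries and the other 7 below. Its mean of the lines minus CK was -0.25 (SE 0.26, edgeR adjusted p = 0.760), and its SD within groups was 0.46 in log2 CPM.

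How reads shared between near-identical genes were counted is not stated in the labels, and reads could have been split among the ADC copies. Within each library, ADC1A held 21.8% to 35.9% of the reads of the 3 ADC genes in transgenic libraries and 32.4% to 36.9% in CK. Per read of ADC1, ADC1A had a mean of 0.678 ± 0.0753 reads in P2.4a, 0.549 ± 0.0792 in P3.9a, 0.616 ± 0.0687 in P9.10a and 0.786 ± 0.0796 in CK (SD, n = 3 each). These ratios do not depend on library scaling, and only their movement between libraries is compared, since the genes' lengths were not used. P2.4a replicate 3, at 0.763, lay within the CK range of 0.695 to 0.836, and the other 8 transgenic libraries lay below it. Summed over the 3 genes, the level was 551 to 990 CPM in transgenic libraries and 834 to 1069 CPM in CK, which overlap.

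**Figure D2:**
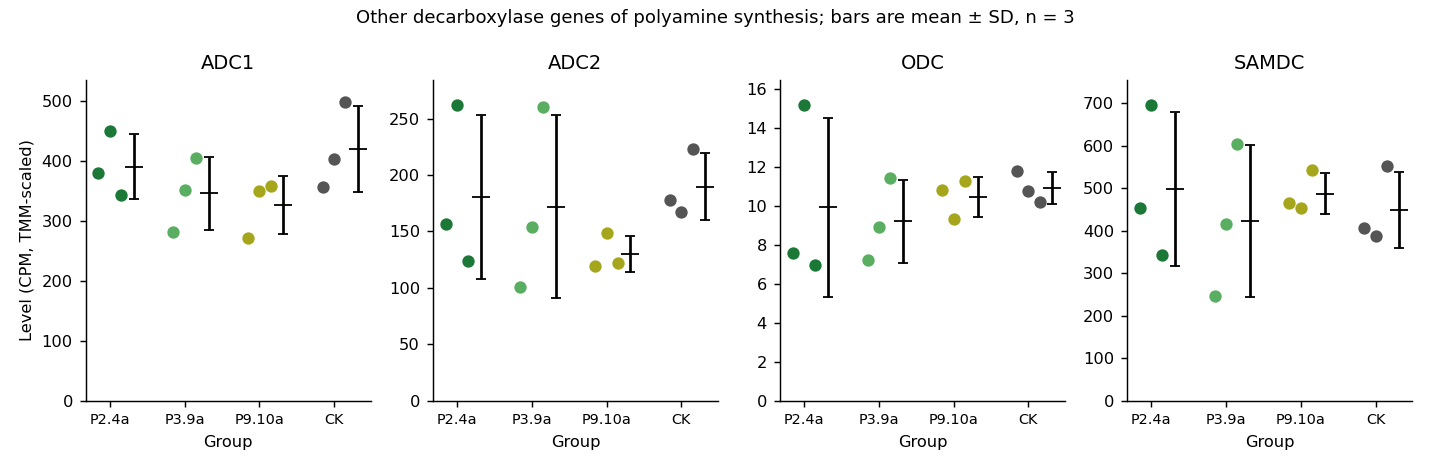
Levels in CPM (vertical axes, each from 0) of ADC1, ADC2, ODC and SAMDC in each library of the 3 lines and CK; black bars are the mean ± SD of 3 libraries. In all 4 genes the transgenic libraries overlap those of CK, and P2.4a replicate 2 and P3.9a replicate 3 are the highest of their lines.

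No other gene of polyamine synthesis passed the threshold against CK. ODC (LOC107815922), ornithine decarboxylase, had 110 to 243 reads in transgenic libraries and 158 to 194 in CK, and a difference of -0.15 (SE 0.20). SAMDC, which makes decarboxylated S-adenosylmethionine, ran from 247 to 697 CPM in transgenic libraries and from 388 to 552 CPM in CK, a difference of 0.06 (SE 0.24). SAMS1 and SAMS2, which make S-adenosylmethionine itself, differed by 0.09 (SE 0.11) and -0.10 (SE 0.11). The intervals of these genes include 0. None of the 6 genes of this list other than ADC1A passed in edgeR or had an unadjusted p under 0.05 for the mean of the lines, and their median was -0.12, beside 0.00205 over all genes tested.

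Deviations from group means over the 12 libraries show how far these genes varied together apart from the differences between groups. With ADC1A the Pearson r was 0.70 for ADC1, 0.50 for SAMDC, 0.47 for ADC2, 0.46 for SAMS2, 0.33 for SAMS1 and 0.27 for ODC. Without the 2 libraries farthest from the median of ADC1A, P3.9a replicates 1 and 2, the values for ADC1 and ADC2 were 0.74 and 0.42, and that of SAMS1 was -0.29. Spearman's rho was 0.70 for ADC1 and 0.52 for ADC2. ADC2 and SAMDC moved most closely with each other (0.94), both lowest in P3.9a replicate 1 and highest in P3.9a replicate 3 within that line. All of these are descriptions over 12 libraries that share their scaling, and for 95% of all genes compared the r of deviations with ADC1A lay between -0.69 and 0.69.

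**Figure D3:**
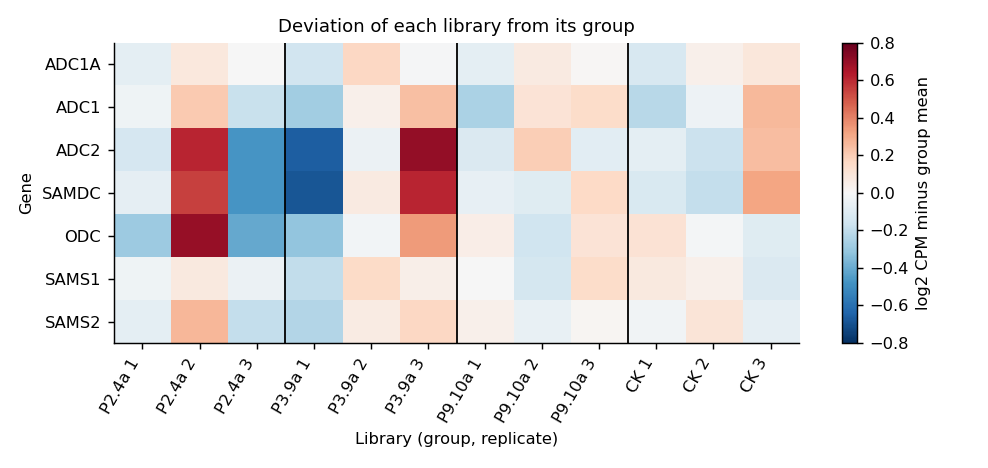
Deviation of each library from its group mean in log2 CPM (colour, red above and blue below) for the 7 genes of polyamine synthesis; black lines part the groups. ADC1A deviates by at most 0.16 in either direction, while ADC2 reaches 0.71 in P3.9a replicate 3 and -0.66 in P3.9a replicate 1.

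Among genes that use polyamines, DAO1 (LOC107768026), a diamine oxidase that acts on putrescine, had an order of groups like that of ADC1A at a far lower count. DAO1 stood at 2.4, 3.94 and 4.44 CPM in P2.4a, at 1.49, 1.87 and 1.77 CPM in P3.9a and at 1.30, 2.72 and 2.16 CPM in P9.10a. In CK it stood at 4.85, 4.05 and 3.67 CPM. All libraries of P3.9a and P9.10a lay below all CK libraries, while P2.4a overlapped CK. The share of all genes with these lines wholly below CK is not given, so this separation is a description only. DAO1 had 22 to 70 reads in transgenic libraries and 57 to 79 in CK. Its mean of the lines minus CK was -0.85 (SE 0.22, edgeR adjusted p = 0.140), and P3.9a minus CK was -1.29 (SE 0.29, edgeR adjusted p = 0.162; adjusted p = 0.0162 in DESeq2). Among the lines its edgeR F test had an unadjusted p of 0.00477 and an adjusted p of 1.00.

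The other polyamine users did not pass either. NtMPO2 (LOC107763693), an amine oxidase whose name is also a synonym of DAO1, had 29 to 73 reads in transgenic libraries and 57 to 87 in CK, and a difference of -0.44 (SE 0.24). MPO1, N-methylputrescine oxidase of nicotine synthesis, had at most 1 read in a library and was not tested. The translation factor eIF-5A-1, which is activated with a group from spermidine, had -0.09 (SE 0.11). None of the 3 tested genes of this list passed, and their median was -0.44.

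Most alkaloid genes had too few reads in these leaves to be tested. Of 16 list members, 4 passed the filter on low counts. PMT1, PMT2 and PMT3, putrescine N-methyltransferases of the root, had 0 reads in all libraries, and PMT4 had 1 read in 1 library of P2.4a. QPT2A, which makes the pyridine part of nicotine, stood at 57.0 CPM on average over the transgenic libraries. In CK it stood at 69.1 ± 6.86 CPM (SD, n = 3), and its difference was -0.28 (SE 0.13, edgeR adjusted p = 0.434). For QPT2A 8 of 9 transgenic libraries lay below all CK libraries, and the share of all genes with 8 of 9 below is not given. QPT1B had -0.04 (SE 0.11), CYP82E5, a nicotine demethylase, had -0.19 (SE 0.12), and CYP82E3, of the same family, had -0.08 (SE 0.44). The 4 tested members had a median of -0.13 and none passed.

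Genes at the edge of arginine and ornithine metabolism were few in the symbol table. P5CS, of proline synthesis from glutamate, had 0.23 (SE 0.11, adjusted p = 0.471). delta-OAT, the ornithine aminotransferase, had -0.14 (SE 0.16), and NtGAD1, a glutamate decarboxylase that makes GABA, had -0.14 (SE 0.23). In ethylene synthesis, which draws on the same S-adenosylmethionine as spermidine, acs2 had -0.23 (SE 0.09, adjusted p = 0.366) and ACO -0.08 (SE 0.25), while ACS1 had 0 reads in all libraries and ACS5 at most 1 read in a library.

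In nitrogen assimilation none of the 10 tested genes passed; their median difference from CK was 0.07 for P2.4a, while that for P3.9a was -0.29 and that for P9.10a -0.22. NIA1, a nitrate reductase, stood at 690 ± 156 CPM in P2.4a, 366 ± 139 CPM in P3.9a, 476 ± 46.1 CPM in P9.10a and 672 ± 135 CPM in CK (SD, n = 3 each). P3.9a replicate 1, the library that stood apart, was its lowest at 213 CPM. P3.9a minus P2.4a was -0.92 for NIA1 (SE 0.26, edgeR adjusted p = 0.926) and -1.13 for NIA2 (SE 0.35, adjusted p = 0.926), in a contrast where 0.0051% of genes were called. For the mean of the lines minus CK, NIA1 had -0.44 (SE 0.21), NIA2 -0.38 (SE 0.28), the glutamate dehydrogenase gdh1 -0.51 (SE 0.22) and the nitrate transporters NtNRT1.1-s, NtNRT1.1-t and NtNRT1.2-t -0.19 (SE 0.12), -0.29 (SE 0.11) and -0.81 (SE 0.47). The nitrite reductases nii2 and nii4 had 0.13 (SE 0.24) and -0.05 (SE 0.16), and the glutamine synthetases Gln1-3 and Gln1-5 had 0.18 (SE 0.20) and 0.13 (SE 0.35). The list has 12 members, and the median of the 10 tested was -0.24 for the mean of the lines.

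Over the 6 lists together, 28 of 45 members other than ADC1A were tested. None passed in edgeR for the mean of the lines, and none in DESeq2 or limma. At an unadjusted p under 0.05 stood 6 of the 28 (21.4%), all lower, against 11.4% of all genes in either direction and 6.76% lower: DAO1, QPT2A, NIA1, gdh1, NtNRT1.1-t and acs2. By sign 22 of the 28 were lower, beside 19468 of the 39207 genes tested. Each line against CK likewise gave no call in edgeR, where 0.00765%, 0.0357% and 0.0128% of all genes were called in P2.4a, P3.9a and P9.10a. At an unadjusted p under 0.05 in edgeR stood 2, 4 and 4 of the 28 in P2.4a, P3.9a and P9.10a, against 10.3%, 8.57% and 7.17% of all genes. DESeq2 called DAO1 in P3.9a, and the DESeq2 share of all genes in that contrast is not given. For the mean of the lines DESeq2 called 453 genes in place of 15 in edgeR. Among the lines, where 0.00765% of all genes were called by edgeR, no member was called by edgeR, DESeq2 or limma, and 3 had an unadjusted p under 0.05 in edgeR (10.7%, against 2.89% of all genes): DAO1, NIA1 and NIA2.

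**Figure D4:**
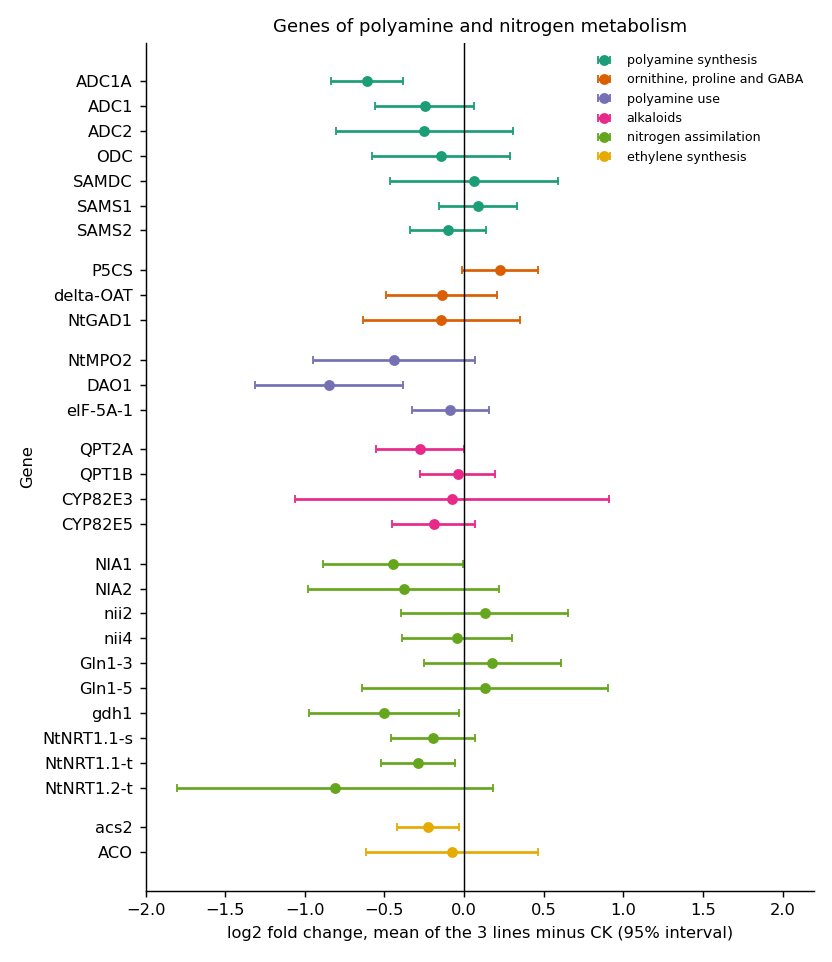
Fitted log2 fold change, mean of the 3 lines minus CK, with 95% intervals (horizontal axis) for ADC1A and the 28 tested genes of the 6 lists (vertical axis, coloured by list). ADC1A at -0.61 was chosen for this contrast, so its interval is not read as a test. The intervals of DAO1, QPT2A, NIA1, gdh1, NtNRT1.1-t and acs2 leave out 0, and those of the other 22 genes include it.

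Genes were also ranked by how closely their log2 CPM followed ADC1A over the 12 libraries, among 33204 genes with a mean log2 CPM of 1 or more. The median r over these genes was 0.01. The closest was LOC107759371 (Pearson r = 0.97, Spearman rho = 0.92; 0.96 without CK replicates 2 and 3, the libraries farthest from the median of ADC1A). It stood at 219, 241 and 231 CPM in P2.4a, at 136, 181 and 179 CPM in P3.9a, at 175, 168 and 174 CPM in P9.10a and at 263, 300 and 278 CPM in CK, so the order of groups is the same as for ADC1A, with P2.4a nearest to CK. LOC107783309 (r = 0.95), LOC107803886 (r = 0.94) and LOC107783543 (r = 0.92) have no symbol.

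Of the 836 genes with a symbol in this ranking, the nearest was Trx-H2, an h-type thioredoxin (r = 0.92, rho = 0.92), at 2.82 ± 0.246 CPM in P2.4a, 2.19 ± 0.191 CPM in P3.9a, 2.22 ± 0.261 CPM in P9.10a and 3.78 ± 0.539 CPM in CK (SD, n = 3 each). DAO1 was next (r = 0.88, rho = 0.84), followed by vi (r = 0.87), acs2, an ACC synthase of ethylene synthesis (r = 0.81), and PAR-C (r = 0.80). Part of this likeness is the step between lines and CK for which ADC1A was chosen. Within groups the r of deviations was 0.71 for LOC107759371, 0.87 for LOC107783309, 0.42 for DAO1, 0.40 for Trx-H2, 0.06 for acs2 and -0.02 for vi. Without P3.9a replicates 1 and 2 these values were 0.42, 0.72, 0.39, 0.40, 0.57 and -0.38, in the same order. For LOC107803886, LOC107783543 and PAR-C the r of deviations was 0.53, 0.42 and 0.57. Without the same libraries it was 0.28, 0.51 and 0.22.

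**Figure D5:**
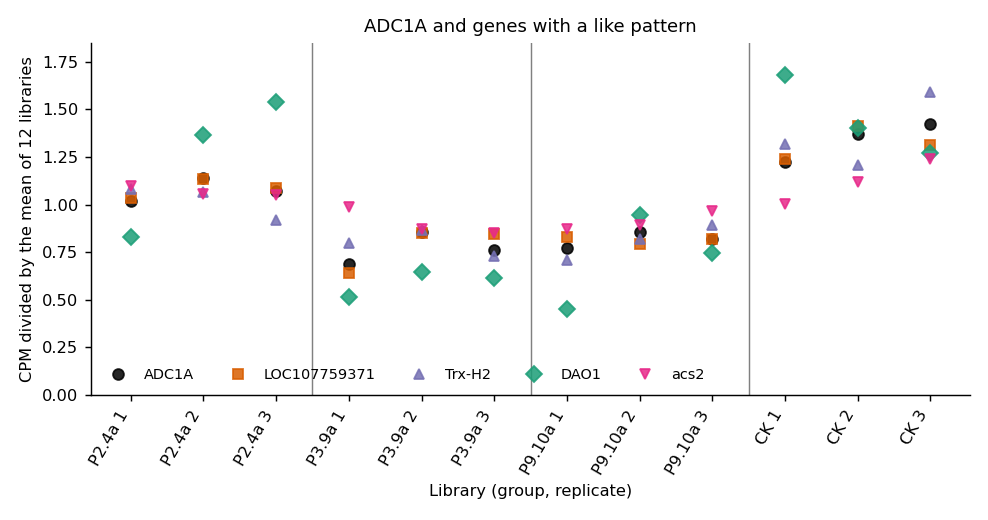
Level in each library divided by the gene's mean over 12 libraries (vertical axis) for ADC1A, LOC107759371, Trx-H2, DAO1 and acs2; grey lines part the groups. LOC107759371 follows ADC1A most closely (r = 0.97), and all 5 genes are higher on average in CK and P2.4a than in P3.9a and P9.10a. The genes beside ADC1A were taken for their high r with it over these same libraries, so the shared order is not a separate result.

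By deviations from group means alone, the nearest genes with a symbol were others: NtMATE (r = 0.88), GDI (0.85), SCP2 (0.84), DXR, which makes the first committed precursor of plastid isoprenoids (0.83), and RBCMT, the Rubisco methyltransferase (0.83). In the mean of the lines NtMATE differed from CK by -0.34 (SE 0.18, edgeR adjusted p = 0.509), and GDI, SCP2, DXR and RBCMT by -0.10 to 0.01. Without P3.9a replicates 1 and 2 the 5 values of r were 0.79, 0.71, 0.64, 0.72 and 0.66.

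In the reference gene table none of the 6 nearest protein-coding genes overlaps ADC1A, and others were not checked for overlap. Of these 6 genes, 5 are in the count table and were tested. Their mean of the lines minus CK ran from -0.30 (LOC107791431) to 0.17 (LOC107816588), and none passed in edgeR (smallest adjusted p = 0.365, for LOC107791431).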

How the data were processed

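Leaf RNA of 12 libraries was sequenced, per the labels from a directional kit. The values the authors deposited are raw read counts, 1 whole number for each gene and library. The submitters' processing notes name HISAT2 2.1.0, SAMtools and bedtools 2.25.0. They give no build, annotation, counting rule or strand setting, and coordinates are left out. Of 61526 identifiers, 49014 were matched to a RefSeq gene table of ASM71507v2 and 1081 had a symbol or synonym. That table was used for names and neighbours only.

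Counts were fitted with edgeR 4.0.16 in R 4.3.3 (TMM, filterByExpr with minimum count 10, robust quasi-likelihood, Benjamini-Hochberg over 39207 genes, threshold 0.05), with all 12 libraries in 1 fit with 8 residual degrees of freedom. The fit was also run on simulated data, and the outcome of that run is not given here. Alternatives were RLE scaling, no filter, DESeq2 1.42.0, limma 3.58.1 with voom, a replicate block, each library left out and, added after seeing the data, the 9 transgenic libraries alone. Log2 CPM for correlations used a prior count of 2. No pair of libraries agreed within sampling noise (lowest chi-square per degree of freedom 5.09). P-values measure the spread between libraries of 1 field experiment.

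Lists were symbol patterns that found 59 genes; 18 were dropped as other enzymes or unsure names and 5 were added on reading the symbols. The members and lists were chosen with earlier results of these data known. Tests of ADC1A among the lines had been planned, but the gene was selected on all 12 libraries, so its differences are given as descriptions. Named genes are ADC1A, the ADC copies, up to 8 tested members a list and those that stand out, and the 5 genes most like ADC1A in each ranking, with all 10 tested nitrogen members given. Copies were to be found by protein identity; no protein table was used here, so symbols served.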

Additional observations from a re-analysis of the deposited data

How the results depend on the processing

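ADC1A kept its sign against CK in all 17 alternatives: -0.67 to -0.57 for the mean of the lines, -0.38 to -0.27 for P2.4a, -0.88 to -0.72 for P3.9a and -0.78 to -0.67 for P9.10a, with 1 library left out giving both ends of each range. For the mean of the lines its adjusted p ran from 3.64e-07 in DESeq2 to 0.418 in edgeR without CK replicate 3. It was under 0.05 in 3 of the 17. None of these is read as a test, since ADC1A was chosen for this contrast. For ADC1A among lines the adjusted p was 0.0250 in DESeq2 and 1.00 in edgeR. Neither value can be read as a test, because ADC1A was selected on these same libraries. The DESeq2 value is therefore not counted as a call, although it is under 0.05. The difference P3.9a minus P2.4a was -0.49 in both tools. DESeq2, which called more genes than edgeR for the mean of the lines, called 1 list member in 1 line (DAO1 in P3.9a) and edgeR none. The DESeq2 share of all genes called in that line is not given. The cause of this difference between tools was not tested.

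Over all genes, the mean of the lines gave 15 calls in edgeR, 82 without a filter, 453 in DESeq2, 9 in limma, and 6 to 740 with 1 library left out. Leaving out P3.9a replicate 1 gave 740 calls, leaving out CK replicate 2 gave 48, and leaving out P9.10a replicate 2 gave 42. The count was 9 with P2.4a replicate 2 or P9.10a replicate 1 left out, 8 with P2.4a replicate 1 left out and 6 with CK replicate 1 left out. Among lines the count was 3, 46 in DESeq2 and 2 to 6 with 1 library left out, 6 being without P3.9a replicate 3. The titles share replicate numbers, but over all genes same-numbered libraries did not as a rule deviate together. Correlations ran from -0.309 to 0.265 over 18 pairs, and 3 of 12 libraries lay nearest to their own number. With 3 libraries a group, these values cannot settle whether the numbers mark a shared block. For ADC1A, replicate 1 was the lowest in every group. The replicate block gave 4 calls in place of 15 for the mean of the lines and -0.61 for ADC1A.

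Of the 5 genes of any kind most like ADC1A, 2 were among the first 5 by Spearman and 3 without P3.9a replicate 1; of the 5 with a symbol, 3 by Spearman and 4 without P3.9a replicate 1. With 1 library left out, genes near 0 changed sign, none of them called: SAMDC ran from -0.0489 to 0.24, eIF-5A-1 from -0.17 to 0.0732, QPT1B from -0.0815 to 0.0277, CYP82E3 from -0.21 to 0.0839, nii2 from -0.0383 to 0.50, nii4 from -0.17 to 0.11, Gln1-5 from -0.00441 to 0.31 and ACO from -0.24 to 0.14. ADC1 ran from -0.35 to -0.11 and ADC2 from -0.39 to -0.12.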
